A study of Mus musculus with 9 samples.

Results

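Glucocorticoid activation and response genes were followed in mouse NS-5 (mNS-5) neural stem cells (NSCs) depleted of Med12, a subunit of the Mediator complex. They comprised 7 genes with 13 annotated probes, out of 19057 genes and 34885 probes with a single gene symbol on the Illumina MouseWG-6 BeadChip. The 7 genes were Hsd11b1, Nr3c1, Nr3c2, Fkbp5, Tsc22d3, Sgk1 and Zbtb16. They were chosen by symbol, and the choice rested on the rise of Hsd11b1 after Med12 knockdown, so the difference of Hsd11b1 between knockdown and control is given below as a description with no test. The other 6 genes were added for their place in the same pathway, with results of these data already known.

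mNS-5 is a clonal line derived from mouse embryonic stem cells, grown attached to gelatin in RHB-A medium with EGF and FGF-2. The culture protocol names no added glucocorticoid, but it does not give the composition of the medium. Whether the cultures held a glucocorticoid is therefore not known here. Cells received lentivirus carrying either a non-silencing (NS) control or an shRNA against Med12, were selected in puromycin and were harvested 5.5 days after infection, so both groups carried a lentiviral vector and a selection marker. RNA was hybridised to 9 arrays, 3 for NS control and 6 for Med12 knockdown. By their labels these form 3 sets with 1 control and 2 knockdown arrays each. The knockdown arrays of a set are named first and second below, and how those differ is not given in the labels or the methods. One Med12 shRNA is named in the study's methods, and its off-target effects cannot be told apart from the loss of Med12. All p-values measure the spread between arrays, which can include technical spread, and precision is limited by there being 3 and 6 arrays. The replicates are described as independent biological ones, 3 for each condition, so the 6 knockdown arrays may come from 3 cultures arrayed in pairs, and p-values that count them as 6 would then be too small.

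Values are intensities on a linear scale, background subtracted and quantile normalized by the authors, which can be negative. Values below 0, mirrored, gave a background limit of 16.9, and a probe was tested if it exceeded that limit on at least 3 arrays. Differences are given on the log2 scale after values below 16 were set to 16, which understates the change of dim genes. Each gene was read by its brightest probe, 10757 genes were tested with limma, and "higher" and "lower" refer to a Benjamini-Hochberg adjusted p of 0.05 or less over all of them. Med12 itself had intensities of 267 to 356 in NS control cells and 112 to 176 in Med12 knockdown cells. The neural stem and radial glia genes Nes, Sox2 and Slc1a3 were above background on every array, while Pax6 was not above background and Prom1 was close to it. Of 9 genes in that list 7 were tested and 0 were higher or lower, beside 6.56% higher and 3.81% lower over all genes. Their median log2 difference was -0.22. Vim differed by -0.40 (limma adjusted p = 0.158) with no overlap of the groups, Fabp7 by -0.50 (adjusted p = 0.139) and Slc1a3 by 0.21 (adjusted p = 0.272). The oligodendrocyte genes Mbp, Mog, Mag and Sox10 and the neuronal genes Tubb3, Rbfox3 and Snap25 were not above background, while the neuronal genes Map2 and Dcx were tested and are given below.

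Glucocorticoids are steroid hormones that cross the cell membrane and bind the glucocorticoid receptor, encoded by Nr3c1, and the mineralocorticoid receptor, encoded by Nr3c2. Hsd11b1 encodes an enzyme of the endoplasmic reticulum that regenerates active glucocorticoid from its inert keto form inside cells, so tissues with this enzyme can raise their own exposure. The bound receptor enters the nucleus and acts on DNA elements near target genes, among them Fkbp5, Tsc22d3, Sgk1 and Zbtb16. In the brain these targets are known from studies of stress, and Fkbp5 feeds back on the receptor by lowering its affinity for hormone.

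Hsd11b1 lies on chromosome 1 of the mouse genome (GRCm38.p6, chr1:193221640-193264045) and was measured by 4 probes. The brightest of them, ILMN_3115917, had intensities of 57.8, 27.9 and 10.5 in NS control replicates 1 to 3. After knockdown it read 262, 103 and 111 on the first arrays of sets 1 to 3 and 270, 131 and 162 on the second arrays. Every knockdown array lay above every control array, as for 10.2% of all 10757 genes tested. The array of NS control replicate 3 was below the background limit. Control arrays averaged 32.1 ± 23.9 (SD, n = 3) and knockdown arrays 173 ± 74.8 (SD, n = 6), which is 2.44 on the log2 scale or 5.43-fold. The size depends on the treatment of dim values, and was 1.42 with 50 added before log2 and 1.17 after a normexp correction. These are bulk values, in which more cells with the transcript and more transcript per cell cannot be told apart.

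Set 1 stood out in both conditions. Both knockdown arrays of set 1 were the brightest of the 6, and the NS control array of set 1 was the brightest of the 3. Measured inside each set, the mean of both knockdown arrays exceeded the control by 2.20 on the log2 scale in set 1, 2.05 in set 2 and 3.07 in set 3. The difference in set 3 is set by the floor, since its control array was below 16.

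Further probes of Hsd11b1 differed in what they reported. ILMN_1214998 read -2.8 to 34.1 in NS control cells and 36.7 to 224 (median 88.1) in Med12 knockdown cells. ILMN_2774160 read 28.4, 1.7 and -5.5 in NS control cells and 50.2 to 176 (median 71.0) in Med12 knockdown cells. On both probes 1 of 3 control arrays and all 6 knockdown arrays were above background, the groups did not overlap, and the log2 differences were 2.18 and 2.16. The share of all probes without overlap was not computed. The fourth probe, ILMN_3041149, read -1.7 to 15.3 in NS control cells and -13.3 to 16.9 in Med12 knockdown cells and was not above background on any array. It carries the same transcript annotation as the others, and its value says nothing on a change. The 3 probes above background followed each other over the 6 knockdown arrays (r = 0.89 to 0.95 on the log2 scale, for probes read from the same RNA).

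**Figure D1:**
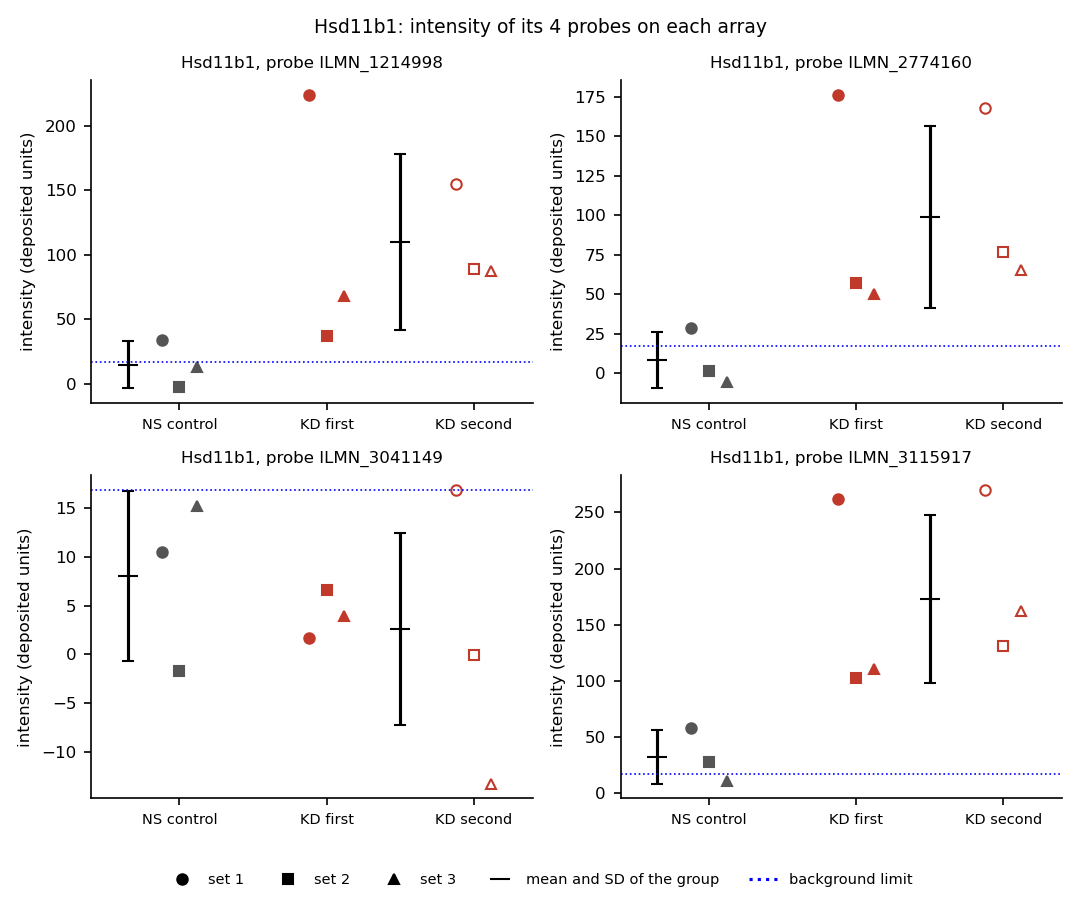
Intensity of the 4 Hsd11b1 probes (vertical axes, deposited linear units, 1 scale per panel) on each array: NS control, first knockdown and second knockdown arrays (horizontal axis), with a marker shape for each set, bars for the mean and SD of the 3 control and the 6 knockdown arrays, and a dotted line at the background limit of 16.9. On 3 probes the knockdown arrays lie above all control arrays with both set 1 knockdown arrays on top, and on ILMN_3041149 no array passes the limit.

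Of the other genes that supply or move glucocorticoids, few were measurable. Of 14 genes in a list of glucocorticoid synthesis, activation and transport, 13 were annotated and 4 were above background, Hsd11b1 included. The remaining 3 did not pass the test. H6pd, which makes the NADPH that Hsd11b1 uses in the endoplasmic reticulum, averaged 60.5 ± 5.92 (SD, n = 3) in control and 88.4 ± 26.9 (SD, n = 6) in knockdown cells, a log2 difference of 0.50 (standard error 0.24, adjusted p = 0.219 from limma). Its arrays overlapped, with 56.5 to 67.3 in NS control cells and 57.5 to 128 in Med12 knockdown cells. Abcb1b, an efflux pump that can export steroids, differed by 0.27 (adjusted p = 0.546), and Slc37a4, which carries glucose 6-phosphate to H6pd, by -0.19 (adjusted p = 0.800). Hsd11b2, the enzyme that inactivates glucocorticoids, was not above background, nor were Star, Cyp11a1, Cyp11b1, Cyp17a1, Cyp21a1 and Hsd3b1, which take part in making steroids from cholesterol.

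Neither receptor gene was measurable. The single probe of Nr3c1 (chromosome 18) read 33.4, 3.5 and -4.9 in NS control cells and 5.3 to 20.2 (median 10.1) in Med12 knockdown cells. It was above background on 1 control and 1 knockdown array, both of set 1. Both probes of Nr3c2 (chromosome 8) were below the background limit on all 9 arrays, at -18.8 to -1.6 in NS control cells and -16.9 to 1.0 in Med12 knockdown cells. No difference is given for either receptor, since values at or under background have no order, and a probe at background does not show that the transcript was absent.

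Genes that fold the receptor or carry its signal did not pass the test. Of 23 receptors, chaperones and coregulators 16 were tested, 0 were higher and 0 were lower, and their median was -0.048 beside a median of -0.0022 over all 10757 genes. Over all genes, 6.56% were higher and 3.81% were lower. Among the chaperones and cochaperones that hold the receptor ready for hormone, Hsp90aa1 differed by -0.32 (adjusted p = 0.264), Fkbp4 by -0.34 (adjusted p = 0.351) and Ppid by -0.32 (adjusted p = 0.280), while Hspa8 and Stip1 differed by -0.014 and 0.012. Med1 and Med14, the Mediator subunits that contact the receptor, differed by 0.34 (standard error 0.12, adjusted p = 0.0996) and by 0.10 (adjusted p = 0.699). Med1 read 434, 497 and 439 in NS control cells and 529 to 643 in Med12 knockdown cells, so the groups did not overlap although the adjusted p missed the threshold.

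Fkbp5 (chr17:28398753-28486149) encodes a cochaperone of the receptor and is also one of its induced targets. Its probe read 232, 214 and 204 in NS control replicates 1 to 3. After knockdown it read 164, 197 and 169 on the first arrays of sets 1 to 3 and 126, 182 and 151 on the second arrays. All 6 knockdown arrays were below all 3 control arrays, and set 2 came closest, with 197 beside a lowest control of 204. The mean was 217 ± 14.3 (SD, n = 3) and 165 ± 24.5 (SD, n = 6), a log2 difference of -0.41 (standard error 0.15, adjusted p = 0.112 from limma), which did not pass the test. Within sets the difference was -0.69, -0.18 and -0.35. Over all 10757 genes, every knockdown array was below every control array for 8.39% and above it for 10.2%.

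Sgk1 (chr10:21882184-21999903) encodes a serine/threonine kinase that acts on ion channels and transporters and answers to glucocorticoids, mineralocorticoids, growth factors and osmotic stress. Its probe had intensities of 2187, 2860 and 2340 in NS control replicates 1 to 3. After knockdown it read 4545, 3729 and 4063 on the first arrays of sets 1 to 3 and 3785, 4211 and 4182 on the second arrays. The groups did not overlap, and the lowest knockdown array was 1.30 times the highest control array. Sgk1 rose from a mean of 2462 ± 353 (SD, n = 3) to one of 4086 ± 301 (SD, n = 6), which is 1.67-fold or 0.74 as a log2 difference (standard error 0.13; limma adjusted p = 0.00689), under the 2-fold threshold of the study. Within sets it was 0.92, 0.47 and 0.82 on the log2 scale, smallest in set 2, whose control array was the brightest of the 3. With 3 knockdown arrays in place of 6 the call was lost at nearly the same size: the difference was 0.74 with the first arrays alone (adjusted p = 0.0809) and 0.73 with the second arrays alone (adjusted p = 0.0619). With both knockdown arrays of a set averaged to give 3 against 3 the adjusted p was 0.0433, and leaving out any single array kept the call (adjusted p = 0.00988 to 0.0350).

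RefSeq promoter windows, from 250 bases before to 50 after a start site, were searched for the half-site bound by the receptors, TGTTCT or AGAACA on the printed strand, and for the palindrome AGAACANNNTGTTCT, which contains both half-sites. Windows were given for 5 of the 7 genes, 12 windows in all, and 4 of them held a half-site (3 of 6 for Sgk1 and 1 for Tsc22d3), beside 19.0% of all 32851 windows. The palindrome was in 1 window of Sgk1 and in 3 of the 32851 (0.00913%). The Sgk1 window with the palindrome and the window of Hsd11b1 are printed, with half-sites in capitals. Whether a receptor acts on either gene in these cells was not tested.
Sgk1, GRCm38.p6 chr10:21993640-21993939, plus strand: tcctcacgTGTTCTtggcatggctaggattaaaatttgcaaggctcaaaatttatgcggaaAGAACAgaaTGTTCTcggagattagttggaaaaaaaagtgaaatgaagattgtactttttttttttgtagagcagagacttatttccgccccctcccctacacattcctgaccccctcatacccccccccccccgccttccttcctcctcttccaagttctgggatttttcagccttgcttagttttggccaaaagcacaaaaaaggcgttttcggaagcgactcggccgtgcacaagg
Hsd11b1, GRCm38.p6 chr1:193242311-193242610, minus strand: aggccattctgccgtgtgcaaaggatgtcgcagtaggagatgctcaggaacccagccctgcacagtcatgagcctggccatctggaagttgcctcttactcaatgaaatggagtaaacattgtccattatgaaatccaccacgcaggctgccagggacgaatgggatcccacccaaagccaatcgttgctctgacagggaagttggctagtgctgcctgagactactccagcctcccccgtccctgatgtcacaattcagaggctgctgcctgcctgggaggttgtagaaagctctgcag

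In the Sgk1 window the palindrome starts 189 bases before the start site (chr10:21993701-21993715), and a further half-site starts 242 bases before it. Sgk1 has 6 such windows, and which of them starts the transcript that the probe reads was not determined here. In the Hsd11b1 window neither the half-site nor the letters TTGCNNAA (or TTNNGCAA), the core of sites bound by C/EBP factors, were found, and 10.8% of all windows held the latter. These are matches of letters and show neither binding nor its absence. Cebpb and Cebpd, which encode 2 C/EBP factors, differed by -0.023 (adjusted p = 0.962) and -0.29 (adjusted p = 0.216).

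Tsc22d3 (chrX:140539528-140600522) encodes GILZ, a leucine zipper protein that carries part of the anti-inflammatory action of glucocorticoids, and it was measured by 3 probes annotated to 3 different transcripts. The brightest, ILMN_3150811, read 841, 692 and 1023 in NS control replicates 1 to 3. After knockdown it read 1029, 896 and 967 on the first arrays and 1322, 924 and 1017 on the second arrays. The groups overlapped and the log2 difference was 0.27 (standard error 0.16, adjusted p = 0.319 from limma). By set it was 0.47, 0.40 and -0.04. The second knockdown array of set 1 stood apart from the other 5, and without it the difference was 0.20 (adjusted p = 0.434).

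The remaining probes of Tsc22d3 did not pass the test either. ILMN_2648224 read 82.9 to 124 in NS control cells and 58.7 to 123 in Med12 knockdown cells, a log2 difference of -0.09 (adjusted p = 0.847, with each of 20026 probes as a feature in limma, of which 4.35% were higher and 2.85% lower). ILMN_2701664 was not above background on any control array, at 10.2 to 14.7, and was above it on 5 of 6 knockdown arrays, at 10.9 to 32.8. This probe passed the filter only through the knockdown arrays, the groups overlapped, and it did not pass the test (limma adjusted p = 0.157 over the same probes). No fold is given for it, since its lowest knockdown array, at 10.9, was also below background.

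Zbtb16 (chr9:48651797-48836225) encodes a zinc finger repressor of transcription that glucocorticoids induce in many tissues. Its probe read 19.9, 13.2 and 10.9 in NS control cells and 6.3 to 27.3 (median 15.8) in Med12 knockdown cells. It was above the background limit on 1 control and 2 knockdown arrays, just enough for the filter. The log2 difference was 0.10 (standard error 0.19, adjusted p = 0.790), and its sign turned under 3 alternatives.

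**Figure D2:**
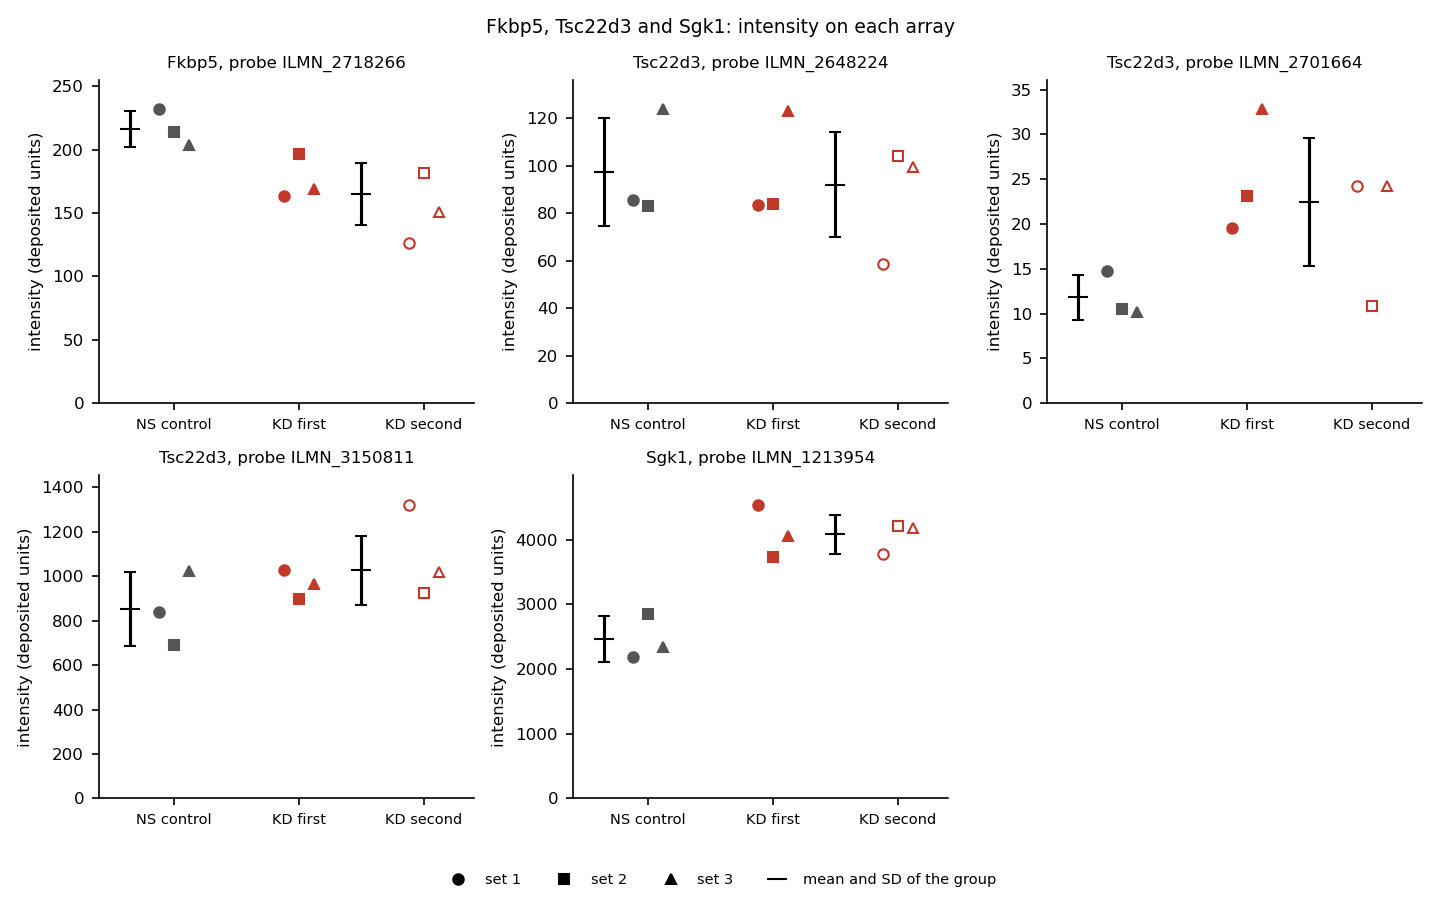
Intensity of the probes of Fkbp5, Tsc22d3 and Sgk1 (vertical axes from 0, deposited linear units, 1 scale per panel) on each array: NS control, first knockdown and second knockdown arrays (horizontal axis), with a marker shape for each set and bars for the mean and SD of the 3 control and the 6 knockdown arrays. Sgk1 lies at 2187 to 2860 in NS control and 3729 to 4545 in knockdown cells, Fkbp5 at 204 to 232 and 126 to 197, and the groups overlap on all 3 Tsc22d3 probes.

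Leaving out Hsd11b1, 4 of the other 6 genes were tested, 1 was higher (Sgk1) and 0 were lower, beside 6.56% higher and 3.81% lower over all genes. With the 2-fold threshold of the study added, 0 of the 4 were called, beside 3.02% of all genes higher and 0.781% lower. A contrast that did not enter the choice of the genes was that of the second with the first knockdown arrays, with the set as a block. From the first to the second arrays Hsd11b1 differed by 0.31 (standard error 0.15), Fkbp5 by -0.22 (standard error 0.13), Tsc22d3 by 0.16 (standard error 0.14), Sgk1 by -0.016 (standard error 0.15) and Zbtb16 by 0.35 (standard error 0.19). All 5 had an adjusted p of 0.993 or more in limma, where 0 of 10757 genes passed and 470 (4.37%) had an unadjusted p of 0.05 or less.

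**Figure D3:**
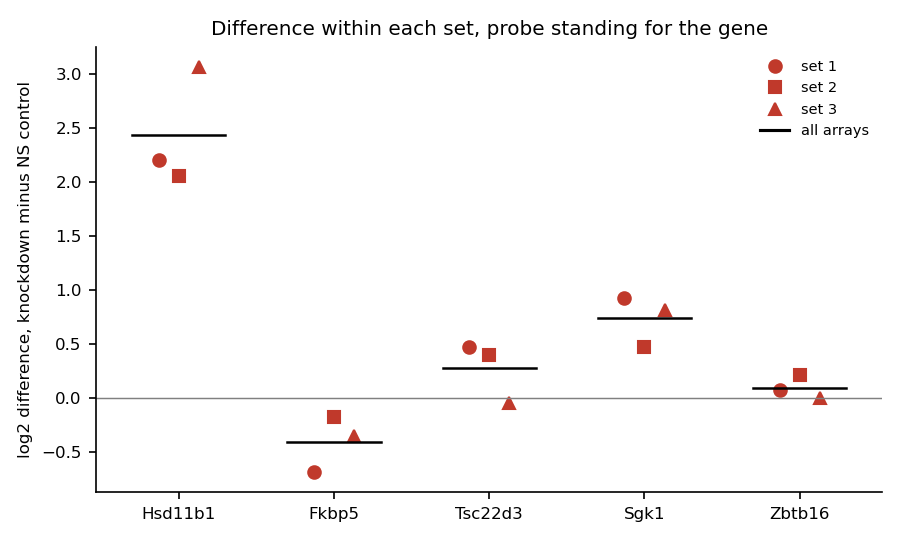
Log2 difference of Med12 knockdown from NS control (vertical axis) for the 5 genes above background (horizontal axis), each by the probe standing for it. Markers give the mean of both knockdown arrays minus the control array of each set, and bars the difference over all 9 arrays. Hsd11b1 and Sgk1 lie above 0 and Fkbp5 below 0 in all 3 sets, and Tsc22d3 lies on both sides of 0.

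A wider list held 27 genes induced by glucocorticoids. Of these 20 were tested, 2 were higher (Sgk1 and Sult1a1), 0 were lower and 18 did not pass, beside 6.56% higher and 3.81% lower over all genes, and their median was 0.073. Sult1a1, a sulfotransferase for phenols, was not above background on any control array (-14.8 to 4.1) and read 102 to 480 in Med12 knockdown cells. It was at least 11.9-fold higher (adjusted p = 0.00102 from limma), but it passed the filter on dim probes only through the knockdown arrays. For such a gene the filter itself favours a rise. Both set 1 knockdown arrays were its brightest, at 301 and 480. Classical targets of the receptor did not pass the test: the clock gene Per1 differed by -0.28 (standard error 0.43, adjusted p = 0.722), Klf9, a Krüppel-like factor, by 0.050 (standard error 0.41, adjusted p = 0.952), the mTOR inhibitor Ddit4 by -0.32 (standard error 0.14, adjusted p = 0.188), the MAP kinase phosphatase Dusp1 by -0.62 (standard error 0.30, adjusted p = 0.210) and the metallothionein Mt1 by -0.13 (standard error 0.23, adjusted p = 0.749). On Klf9 the first knockdown array of set 3 stood apart, at 567 beside 1730 to 2435 on the other 5 and 1468 to 1740 in NS control cells, and the difference without it was not computed. For the repressor of transcription Bcl6 the groups did not overlap, at 452 to 505 and 537 to 970, with a log2 difference of 0.46 (adjusted p = 0.155). Anxa1 and Mertk each differed by 0.45, Cdkn1a by 0.15, and Errfi1 and Glul each by 0.14. Nfkbia differed by -0.10 and Arrdc2 by -0.26, and none of these genes passed (limma adjusted p = 0.178 to 0.693).

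Of 12 genes that glucocorticoids repress, 4 were tested and 0 passed in either direction, beside 6.56% higher and 3.81% lower over all genes. Their median was -0.15. They were the chemokine Ccl2 at -0.71 (standard error 0.36, adjusted p = 0.238), the protease Mmp9, and the adhesion molecules Icam1 and Vcam1. Ccl2 was above background on 2 control and 2 knockdown arrays. The inflammatory genes Il6, Il1b, Tnf, Cxcl1, Ptgs2 and Nos2 were not above background.

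Over the 4 lists together, without the members, 38 genes were tested, of which 1 was higher (2.63%), 0 were lower and 37 did not pass, with a median of -0.019, beside 6.56% higher and 3.81% lower over all genes. The 1 higher gene was Sult1a1, which entered the test only through its knockdown arrays. Every knockdown array was above every control array for 3 of the 38 (Med1, Sult1a1 and Bcl6, 7.89%, beside 10.2% of all genes) and below for 1 (the Hsp40 cochaperone Dnajb1, 2.63%, beside 8.39%). Dnajb1 averaged 4084 ± 29.6 (SD, n = 3) in control and 3341 ± 345 (SD, n = 6) in knockdown cells, which is -0.30 on the log2 scale (adjusted p = 0.152). Genes of these lists that did not pass the test were named after their values had been seen.

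**Figure D4:**
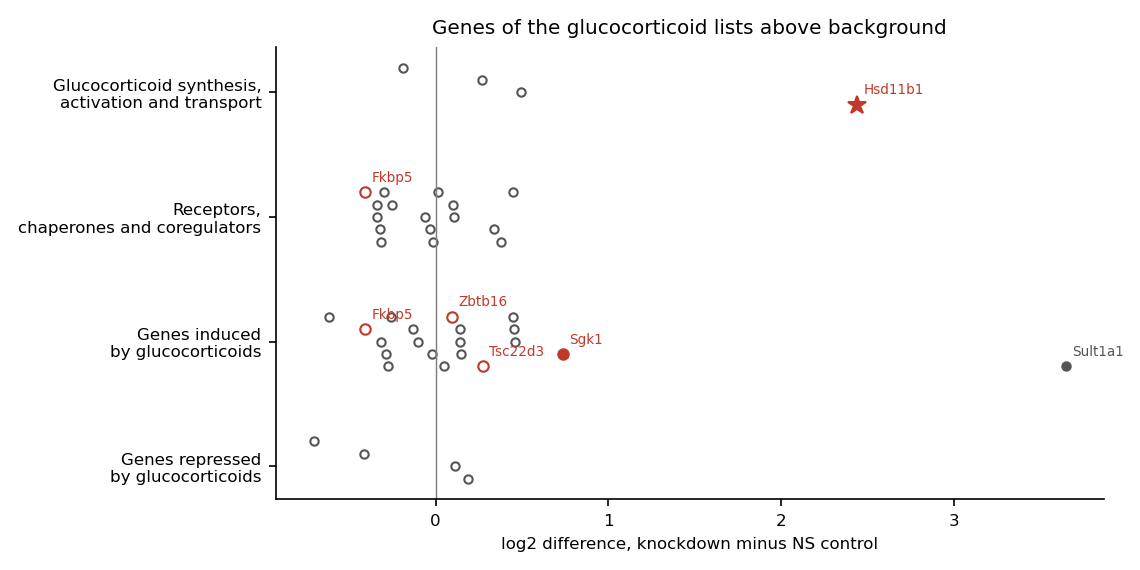
Log2 difference of Med12 knockdown from NS control (horizontal axis) for each gene above background in 4 lists of glucocorticoid genes (vertical axis, points spread within a list for legibility). Red marks members and grey other genes, filled circles have an adjusted p of 0.05 or less, open circles do not, and the star is Hsd11b1, which was not tested. Sgk1 at 0.74 and Sult1a1 at 3.65 (values set to 16 in control cells) are the filled circles, and the other tested genes lie between -0.71 and 0.50.

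Markers of other cell types were read beside these values. For each marker list the shares over all genes were 6.56% higher and 3.81% lower. Of 6 astrocyte markers 1 was higher, 0 were lower and 5 did not pass. The summed intensity of the list was 6306 to 7150 in NS control and 5670 to 6361 in Med12 knockdown cells, most of it from Gja1. Aldh1l1, a folate enzyme, rose by 1.04 (standard error 0.28, adjusted p = 0.0400 from limma). Aldh1l1 was close to background in NS control cells, above it on 2 control arrays and on all 6 knockdown arrays. Its control value in set 1 was set to the floor of 16, so the size of the rise depends on the floor. S100b, a calcium-binding protein, differed by 1.12 (adjusted p = 0.0727) and Gfap, the intermediate filament of astrocytes, by 0.68 (adjusted p = 0.0962). Gfap was above background on 1 control and 5 knockdown arrays. Gja1, the brightest of the list, read 5831 to 6758 in NS control and 4933 to 5737 in Med12 knockdown cells. It differed by -0.23 (adjusted p = 0.214), Aqp4 by 0.22 (adjusted p = 0.856) and Slc1a2 by 0.23 (adjusted p = 0.364). Of 6 fibroblast markers, Col1a1, Col3a1, Lum and Pdgfrb were not above background, and 2 were tested with 0 passing. The summed intensity of those 2, Col1a2 and Dcn, was 10.1 to 17.5 in NS control and 24.0 to 348 in Med12 knockdown cells. Col1a2 differed by -0.19 (adjusted p = 0.481), and Dcn passed the filter only through the knockdown arrays. Dcn, which encodes the matrix proteoglycan decorin, was below background on all control arrays (limma adjusted p = 0.205). It was brightest on both knockdown arrays of set 1, at 138 and 353, the arrays on which Hsd11b1 was also brightest. The same arrays were the brightest knockdown arrays for Bcl6, S100b, Cdkn1a and further listed genes. For Sgk1, Map2 and H6pd, among others, they were not. Of the neuronal markers, 2 of 5 were tested and 0 passed. Map2, a microtubule protein of neurons, read 5217 to 6172 in NS control and 6309 to 8053 in Med12 knockdown cells, a log2 difference of 0.33 (adjusted p = 0.122) with no overlap. Dcx, a microtubule protein of young neurons, was above background on 1 control array and on all 6 knockdown arrays, with a log2 difference of 0.96 (adjusted p = 0.113). The part of such cells in the values of Hsd11b1 and Sgk1 was not tested.

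The genes whose intensities followed Hsd11b1 most closely were ranked by Pearson's r over the 9 arrays, as a description with no test. Ttc30b, which takes part in transport within cilia, came first (r = 0.996), followed by Bbox1, the last enzyme of carnitine synthesis (r = 0.987), Grn, which encodes progranulin (r = 0.987), D5Ertd579e (r = 0.986) and the cell cycle factor E2f1 (r = 0.982). Their own log2 differences were 1.11, 1.73, 0.78, 0.69 and 0.51. With each array expressed as its deviation from its group mean, which removes the difference between groups, Ttc30b was again first (r = 0.989), followed by Megf11 (r = 0.987, above background on 3 control and 4 knockdown arrays), Prepl (r = 0.969), Usp42 (r = 0.969) and D5Ertd579e (r = 0.957). Each is the top of a ranking over all other tested genes, on 9 arrays that share sets. On the same deviations, the genes closest to Fkbp5 were Mfsd10 (r = 0.977), Pes1 and Usp8, those closest to Tsc22d3 were Aldh1a2 (r = 0.957, above background on only 2 control and 2 knockdown arrays), Kcnj16 and S100b, and those closest to Sgk1 were Atp5g3 (r = 0.943), Mapre1 and Afg3l2. Among the members, the deviations of Sgk1 had r = -0.024 with those of Hsd11b1 and r = -0.030 with those of Fkbp5, and Tsc22d3 had r = -0.76 with Fkbp5.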

How the data were processed

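Gene expression was measured on Illumina MouseWG-6 BeadChips with 45281 probes in 3 NS control and 6 Med12 knockdown arrays of mNS-5 NSCs. The deposited intensities had been background subtracted and quantile normalized by the authors with GenomeStudio, whose version was not given in the sources used here. Quantile normalization gives every array the same distribution, so a change shared by most genes would not be seen. The intensity at the median was 8.9 or 9.0 on every array, 18654 to 18690 probes per array exceeded the background limit, and arrays correlated at 0.953 to 0.986. No 2 arrays were identical. A table of signals without normalization, with 18 columns, was not used because its column names match no sample.

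Values below 0 were mirrored (SD 10.3), which gave limits of 16.9 and 24.0 at one-sided p of 0.05 and 0.01. Probes above 16.9 on at least 3 arrays were kept (20026), values below 16 were set to 16, and log2 values were fitted in limma 3.58.1 (lmFit, eBayes; R 4.3.3), two-sided, without the set in the model. For Sult1a1, below background on every control array, only a bound on the fold is given, computed with that limit. Symbols came from the platform annotation (34885 probes with 1 symbol, 18 with several, 10378 unnamed here). Entrez identifiers of 34807 were found in a GRCm38.p6 gene table and 0 symbols changed. The members, the gene lists and the rule for named genes (all members, up to 4 genes past the threshold per list and direction, and the 5 genes most like Hsd11b1 and other members) were chosen with earlier results of these data known. The fit was tested on simulated data before use. Alternatives covered the floor, the offset, normexp, the filter, how probes of a gene were combined, a block for the set, use of the first, the second or the averaged knockdown arrays, array weights, the variance prior and leaving out each array. Promoter windows were those of RefSeq (GRCm38.p6), and that of Nr3c1 is not reported here. Plots used Python 3.11.15 with matplotlib 3.10.9.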

Additional observations from a re-analysis of the deposited data

Results flagged for a closer look

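On ILMN_3150811, the brightest probe of Tsc22d3, the second knockdown array of set 1 had an intensity of 1322, far from the other 5 knockdown arrays (median of the 6 arrays 992). The gap to the next array was 0.689 of the whole range of the 6. It was the 1 such value among the 13 probes of the members, and chance gives about 1 in 20 groups.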

How the results depend on the processing

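Over 24 alternatives Fkbp5 (adjusted p = 0.0796 to 0.330) and Tsc22d3 (log2 difference 0.13 to 0.42, adjusted p = 0.204 to 0.688) never passed the test and kept their signs. Sgk1 kept its call in 22, and lost it with the first (0.74) or second (0.73) knockdown arrays alone, each with 3 fewer arrays. Hsd11b1 was 1.42 with 50 added before log2 and 1.17 with normexp, and 2.00 to 2.92 on leaving out 1 array. Zbtb16, near background, changed sign with values below 1 set to 1 (-0.069), with the first arrays alone (-0.079) and on leaving out 1 array (-0.019 to 0.20), and the strict filter removed it.

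Counts of genes over the whole array moved more, and where nothing else is said the cause was not tested. In place of 706 genes higher, there were 437 with no filter, 344 with the knockdown arrays of a set averaged, 185 with the first and 285 with the second arrays alone, and 373 to 664 on leaving out 1 array. In place of 410 lower, there were 628 with normexp, 164 averaged, 60 first, 121 second and 169 to 396 on leaving out 1 array. With a fold of 2 or more, the 325 higher were 168 with 50 added, 126 with normexp, 199 with no filter, 154 with the first arrays and 239 to 339 on leaving out 1 array, and the 84 lower were 45, 30, 49, 43 and 69 to 94, and 157 with every probe as a feature.

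The set as a replicate block gave 1137 higher and 751 lower and changed no member's call (Sgk1 adjusted p = 0.00762, Fkbp5 adjusted p = 0.0796). The labels do not say that a set shares a batch, and deviations of control and knockdown arrays of a set correlated at 0.026 to 0.30, not all above 0.1, so the sets were not treated as pairs. That 8 of 9 arrays correlated best with their own set is a hint from the data of a shared set effect. Deviations of the first and second knockdown arrays of a set correlated at 0.27, -0.052 and 0.022 in sets 1 to 3. Whether those arrays share a culture was not tested. Signal over background limits Nr3c1, Nr3c2, Zbtb16 and the control arrays of Hsd11b1, for which folds depend on the floor.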
